A study of Homo sapiens with 4 samples.

Results

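The epidermal growth factor receptor (EGFR) family was followed through 10 genes chosen by their symbols: 3 receptors (EGFR, ERBB2 and ERBB3), 6 ligands (TGFA, HBEGF, AREG, EREG, BTC and EPGN) and 1 feedback inhibitor (ERRFI1). All 10 were found among the 25369 genes of the count table. The libraries were made from polyadenylated RNA of H226, a human line established from a squamous cell carcinoma of the lung, which carried an inducible short hairpin RNA. The shControl group (2 libraries) expressed a non-targeting hairpin and the shp63 group (2 libraries) a hairpin against p63, a p53-related transcription factor needed by basal and squamous epithelium. All 4 cultures, controls included, received 1 µg/mL doxycycline for 6 days to induce the hairpin. The labels name 1 construct per group, so an effect of the p63 hairpin that does not pass through p63 cannot be told apart from loss of p63, and they do not say whether the lines were clones. The series' design text calls the 2 libraries of a group independent biological replicates.

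EGFR is a receptor tyrosine kinase that, when a ligand binds, pairs with another EGFR molecule or with its relatives ERBB2 and ERBB3 and signals through the RAS-ERK and PI3K-AKT routes. The ligands are made as membrane-anchored precursors and are released from the cell surface by proteases of the ADAM family. In squamous epithelium the pathway is known for driving growth and migration of basal cells, and several of the ligands act on the cell that makes them.

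The libraries held 51926832 to 53924761 counted reads, and levels are given as CPM, read counts scaled to the library total and to composition factors of 0.966 to 1.03. TP63, the gene targeted by the hairpin, had 7533 and 7364 reads in shControl and 1596 and 1530 reads in shp63, a 4.46-fold lower level. The 10 squamous markers listed for a check of the label all had reads, from 4.35 CPM (KRT14) to 3898 CPM (KRT17) in shControl. KRT5 stood at 757 CPM in shControl and 148 CPM in shp63, and 9 of 10 of them fell. The summed level in shControl was 6889 to 7053 CPM for these markers, with KRT17 the largest part, and 415 to 441 CPM for the mesothelium markers. The mesothelium sum came from UPK3B (215 CPM), MSLN (132 CPM) and BNC1 (80.2 CPM), with every other marker of that list below 1 CPM. Such sums depend on which genes were listed. All 5 markers of simple epithelium rose. Of 8 leukocyte markers 5 were tested, 4 rose (CD14, CD68, LYZ and CSF1R) and 1 fell (ITGAM), with LYZ tested through the shp63 libraries alone (1 and 1 reads in shControl, 33 and 21 in shp63). The 8 markers had a summed level of 14.8 to 16.3 CPM in shControl and 81.6 to 85.3 CPM in shp63. The pan-leukocyte gene PTPRC had 4 to 8 reads in each library, and CD3E had 0 in shControl and 4 in each shp63 library. Of the tested markers of other cell types, 3 of 4 for mesothelium rose and 1 fell, 2 of 3 for fibroblasts fell, and 2 of 3 for endothelium rose and 1 fell. Of the fibroblast genes that fell, PDGFRB was tested through the shControl libraries alone (25 and 19 reads in shControl, 5 and 4 in shp63). Beside these counts, 36.9% of all tested genes were called higher and 37.1% lower in the test described below. The part of these shifts in the results below was not tested. In bulk RNA, fewer cells of a type and less RNA per cell cannot be told apart.

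EGFR was the only 1 of the 10 genes that fell, and the other 9 rose. All 10 genes passed the low-count filter, and all 10 were called different between shp63 and shControl by edgeR's quasi-likelihood test (Benjamini-Hochberg adjusted p below 0.05 over 14901 genes), where 74.0% of all tested genes were. The share called higher was 9 of 10, beside 36.9% of all tested genes, and the share called lower was 1 of 10, beside 37.1%. The groups were without overlap for all 10 genes, beside 86.4% of all tested genes. A test for a change beyond 1.5-fold (edgeR glmTreat) called 8 of the 10, all but ERBB2 and ERRFI1, beside 22.7% of all tested genes; 7 of the 8 were higher, beside 12.7%. The median log2 fold change of the 10 genes was 0.95, beside -0.01 over all tested genes. These counts and the median include EREG, which passed the low-count filter through the shp63 libraries alone and so had to differ to be tested. For a single gene, the smallest p that an exact permutation test (two-sided) allows with 2 libraries per group is 0.333. The calls therefore depend on a spread that the model shares across genes.

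**Figure D1:**
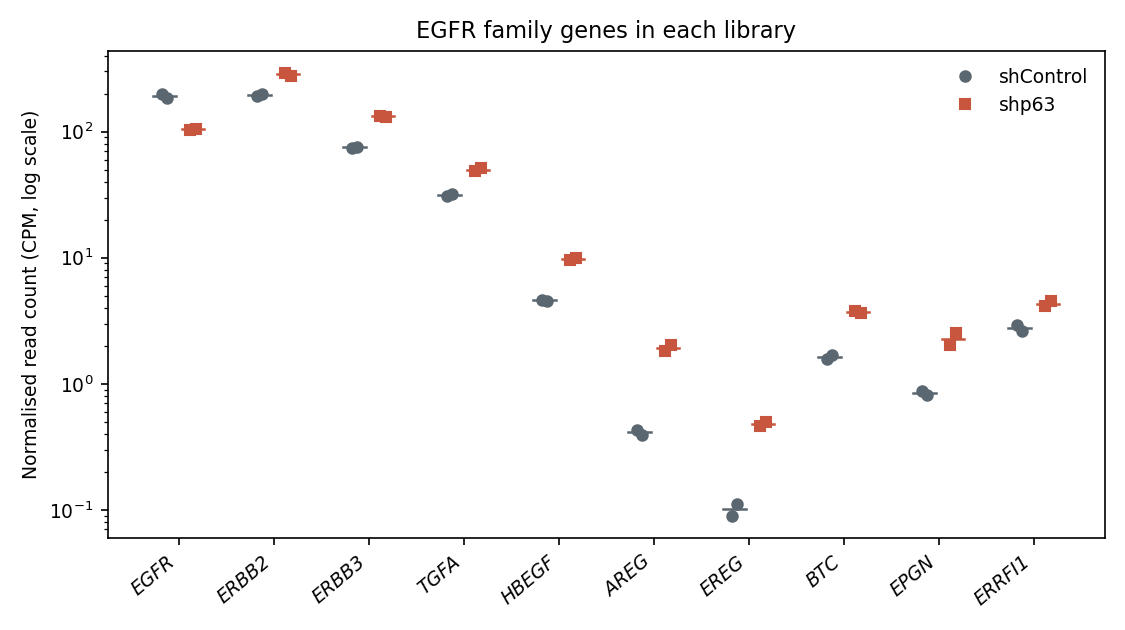
Normalised read count (CPM, log scale) of each family gene in the 2 shControl libraries (circles) and the 2 shp63 libraries (squares), with a bar at each group's mean. EGFR is the 1 gene whose squares lie below its circles, and levels run from 0.0902 CPM (EREG) to 292 CPM (ERBB2).

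Among the receptors, EGFR went down while its partners went up. EGFR (chromosome 7 from 55086710 to 55279321, plus strand, GRCh37) stood at 197 and 185 CPM in shControl and at 103 and 105 CPM in shp63. Both shp63 libraries lay well below both shControl libraries. The mean level of 191 ± 8.90 CPM in shControl fell by a factor of 1.83 to 104 ± 1.33 CPM under the p63 hairpin (SD, n = 2 each), a log2 fold change of -0.87 (SE 0.034, adjusted p = 5.97e-16, edgeR). Of all tested genes 8.38% had a lower log2 fold change than EGFR.

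ERBB2, the receptor that binds no known ligand itself and serves as the preferred partner of the others, lies on chromosome 17 from 37844167 to 37886679. It stood at 191 and 198 CPM in shControl and at 292 and 277 CPM in shp63, so that the groups were apart by more than their spread. ERBB2 rose 1.46-fold (log2 fold change 0.55, SE 0.032, adjusted p = 8.37e-13, edgeR), which the test for a change beyond 1.5-fold did not call (adjusted p = 1, glmTreat). The annotated exons of ERBB2 share 571 bases with MIEN1 and 144 bases with PGAP3 on the opposite strand. MIEN1 rose 1.60-fold, from 29.2 to 46.7 CPM, and PGAP3 rose 2.57-fold, from 25.1 to 64.5 CPM. Overlaps were also annotated for other members. EGFR exons share 186 bases with EGFR-AS1 and ERRFI1 exons 155 bases with a long non-coding RNA, both on the opposite strand. ERBB3 exons share 31 bases with a gene on the same strand. Whether the counting used strand is not given in the sources used here, and reads of all these overlaps are uncertain.

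ERBB3, which has a largely inactive kinase and couples strongly to PI3K, lies on chromosome 12 from 56470583 to 56497289. Its levels were 74.7 and 75.3 CPM in shControl and 134 and 131 CPM in shp63. The replicates were close and the groups far apart, with a 1.76-fold rise (log2 fold change 0.82, SE 0.036, adjusted p = 3.91e-15, edgeR).

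The balance between the receptors can be read within each library, where it does not depend on scaling. For each ERBB2 read there were 1.03 and 0.934 EGFR reads in shControl and 0.353 and 0.379 in shp63. For each ERBB3 read there were 2.64 and 2.45 EGFR reads in shControl and 0.772 and 0.802 in shp63. The ratio of ERBB2 to ERBB3 reads moved less, from 2.56 and 2.62 to 2.19 and 2.11. These are ratios of reads and carry the genes' different lengths, so only their change between groups is comparable.

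**Figure D2:**
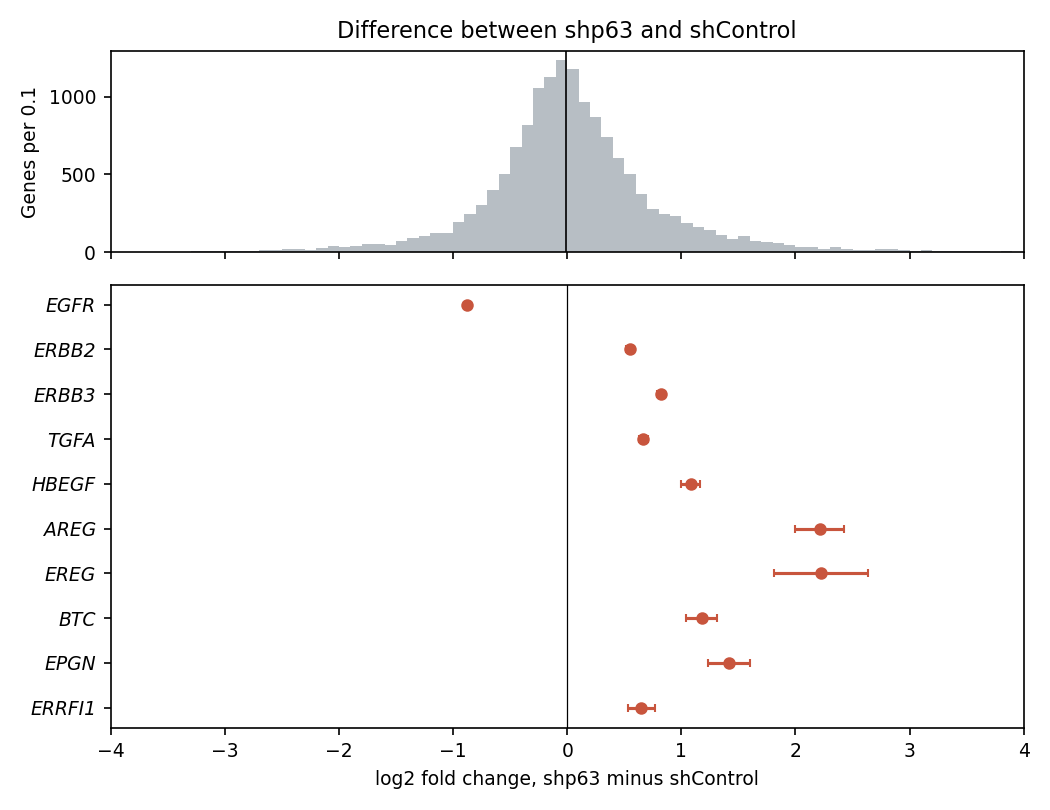
Upper panel: log2 fold changes of all tested genes in bins of 0.1, with a line at their median (52 genes lie beyond 4 in either direction and are not drawn). Lower panel: log2 fold change of each family gene with its SE as a bar. EGFR lies at -0.87 and the other genes between 0.55 and 2.23.

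All 6 ligand genes rose. TGFA, encoding transforming growth factor alpha, was the ligand with the most reads. It lies on chromosome 2 from 70674416 to 70781325 on the minus strand, and stood at 30.9 and 31.9 CPM in shControl and at 48.7 and 51.2 CPM in shp63. The groups did not overlap, and TGFA rose 1.59-fold (log2 fold change 0.67, SE 0.038, adjusted p = 5.68e-13, edgeR). In the test for a change beyond 1.5-fold its adjusted p was 0.0244 (glmTreat).

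HBEGF, the heparin-binding ligand, lies on chromosome 5 from 139712428 to 139726188 on the minus strand. It had 255 and 246 reads in shControl and 498 and 495 in shp63, or 4.60 and 4.58 against 9.57 and 9.87 CPM. Replicates were nearly equal in both groups. HBEGF rose 2.12-fold (log2 fold change 1.08, SE 0.085, adjusted p = 1.28e-10, edgeR). For each EGFR read there were 0.0233 and 0.0248 HBEGF reads in shControl and 0.0927 and 0.0939 in shp63, and for TGFA 0.157 and 0.173 against 0.472 and 0.487, so reads of both ligands increased relative to those of the receptor.

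The other ligand genes, EPGN (epigen), EREG (epiregulin), AREG (amphiregulin) and BTC (betacellulin), lie in that order within 546 kb of chromosome 4, from 75174187 to 75719733. The first 3 are on the plus strand and BTC is on the minus strand. Each was low, and each rose. The 250 bases before each annotated start are shown because the 4 neighbours moved together, and those of EGFR because it moved the other way. They are RefSeq promoter sequences (taken from a GRCh38.p14 table and matched letter for letter to GRCh37), 5′ to 3′ on the gene's strand. Capitals mark 2 searched motifs, the TATA box TATAAA and the cyclic AMP response element TGACGTCA.
EPGN, chr4:75173937-75174186, plus strand: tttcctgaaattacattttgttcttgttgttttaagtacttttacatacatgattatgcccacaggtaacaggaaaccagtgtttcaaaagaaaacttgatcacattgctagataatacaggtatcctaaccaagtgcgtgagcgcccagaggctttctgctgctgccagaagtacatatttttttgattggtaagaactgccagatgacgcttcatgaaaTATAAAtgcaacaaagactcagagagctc
EREG, chr4:75230612-75230861, plus strand: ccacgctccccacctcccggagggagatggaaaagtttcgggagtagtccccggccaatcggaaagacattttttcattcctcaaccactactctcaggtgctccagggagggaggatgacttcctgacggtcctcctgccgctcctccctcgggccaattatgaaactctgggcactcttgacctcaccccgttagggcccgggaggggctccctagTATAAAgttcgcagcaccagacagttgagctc
AREG, chr4:75310603-75310852, plus strand: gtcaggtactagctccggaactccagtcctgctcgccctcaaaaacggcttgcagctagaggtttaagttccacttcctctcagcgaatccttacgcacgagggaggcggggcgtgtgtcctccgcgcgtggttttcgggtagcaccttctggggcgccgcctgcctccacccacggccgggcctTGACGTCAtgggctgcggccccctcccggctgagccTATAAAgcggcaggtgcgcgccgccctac
BTC, chr4:75719734-75719983, minus strand: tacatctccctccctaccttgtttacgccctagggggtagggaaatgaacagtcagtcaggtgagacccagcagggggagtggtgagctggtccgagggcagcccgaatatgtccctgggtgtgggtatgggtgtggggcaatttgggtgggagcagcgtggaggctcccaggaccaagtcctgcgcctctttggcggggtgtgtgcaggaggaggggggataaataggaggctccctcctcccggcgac
EGFR, chr7:55086460-55086709, plus strand: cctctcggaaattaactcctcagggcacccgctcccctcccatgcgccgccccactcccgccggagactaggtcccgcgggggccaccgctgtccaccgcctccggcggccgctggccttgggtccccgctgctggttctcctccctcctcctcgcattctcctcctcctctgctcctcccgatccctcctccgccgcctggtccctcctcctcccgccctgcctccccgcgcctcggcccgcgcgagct

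TATAAA began 29 bases before the start in EPGN, 32 in EREG and 29 in AREG. It was not found on either strand in the windows of BTC or of the EGFR start shown, but the second EGFR start held it 2 times, 146 and 36 bases before the start, so that 4 of 11 windows held it. Of 35116 RefSeq promoter windows of the same length 10.7% held it. AREG also had TGACGTCA 65 bases before its start, which 1.65% of windows held. The base composition differed too, with 38.0% G and C in EPGN, 58.0% in EREG, 65.2% in AREG, 62.0% in BTC and 73.6% in EGFR. RefSeq windows were found for 9 of the 10 genes, 11 in all because EGFR and TGFA have 2 each. The AP-1 motif TGANTCA, the motif of FOS and JUN factors, was in 2 of the 11 (ERBB2 and the second EGFR start), beside 6.57% of all windows. The ERBB2 window, from 37844097 to 37844346, belongs to a start upstream of the canonical transcript, which begins at 37856317. The GC box GGGCGG was in 5 of the 11, beside 42.6%, and the p53 family half-site was in 0 of the 11, beside 5.57%. All motifs were searched on both strands, none contains another, and a match is a description of letters and not of binding.

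AREG had 24 and 21 reads in shControl and 95 and 101 in shp63, or 0.433 and 0.391 against 1.83 and 2.01 CPM. The shp63 libraries were each several times the shControl libraries, a 4.64-fold rise (log2 fold change 2.21, SE 0.216, adjusted p = 5.62e-09, edgeR). GRCh37 holds a near-identical copy of AREG. The canonical transcript of 1234 bases matched its own locus in full and a second place 160 kb further along, from 75480629 to 75490481, with 99.9% identity. The 250 bases before its start occurred 2 times in chromosome 4 as well. The sources used here do not say how reads that fit both copies were counted, so the level of AREG is uncertain in all 4 libraries. None of the other 9 transcripts had a second match over at least 50% of its length at 90% identity or more.

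EREG had the fewest reads, 5 and 6 in shControl and 24 and 25 in shp63. It passed the low-count filter through the shp63 libraries alone, so that it had to differ to be tested. Its log2 fold change was 2.23 (SE 0.410, adjusted p = 4.79e-05, edgeR), or 4.68-fold, and it was not tested under a filter of 1 CPM in 2 libraries.

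EPGN had 49 and 44 reads in shControl and 106 and 127 in shp63, or 0.884 and 0.819 against 2.04 and 2.53 CPM. Relative to their mean, its shp63 libraries differed more from each other than those of the other ligands, yet both exceeded the controls by more than that spread. EPGN rose 2.67-fold (log2 fold change 1.42, SE 0.183, adjusted p = 4.26e-07, edgeR).

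BTC had 88 and 91 reads in shControl and 197 and 182 in shp63, or 1.59 and 1.69 against 3.79 and 3.63 CPM. The groups did not overlap. BTC rose 2.26-fold (log2 fold change 1.18, SE 0.135, adjusted p = 7.08e-08, edgeR).

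Within 1 Mb on either side of the ligand cluster, 20 further protein-coding genes were in the count table and 12 were tested. Of these 8 rose, 1 fell and 3 were not called, beside 36.9% higher and 37.1% lower among all tested genes. The 8 include G3BP2 and USO1, with log2 fold changes of only 0.07 and 0.22. None of the 20 lay inside the cluster. MTHFD2L, which ends just before EPGN, had a log2 fold change of 0.10 (SE 0.109, adjusted p = 0.436, edgeR), and was not called. PARM1, the next gene beyond BTC, rose from 0.292 to 1.34 CPM (log2 fold change 2.18). On the far side of MTHFD2L lie the chemokine genes CXCL8, CXCL1, CXCL3 and CXCL2, which rose by log2 fold changes of 0.85 (CXCL1) to 2.14 (CXCL8). PPBP, which lies among them, stood at 0.119 CPM in shControl and 3.41 CPM in shp63 (log2 fold change 4.81) and passed the low-count filter through the shp63 libraries alone. RASSF6 fell (log2 fold change -1.86). These neighbours were chosen after the ligand values were seen.

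**Figure D3:**
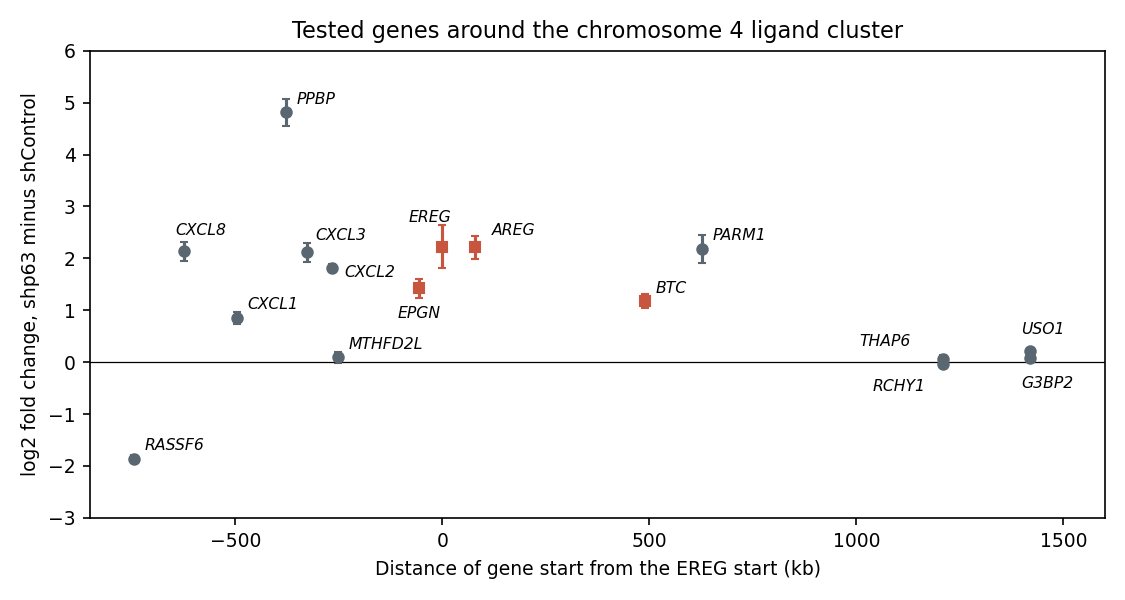
Log2 fold change (shp63 minus shControl, with SE) of tested genes against the distance of their start from the EREG start in kb. Squares are the 4 ligand genes and circles are neighbours. The ligands lie between 1.18 and 2.23, MTHFD2L lies at 0.10 between the chemokine genes and EPGN, and RCHY1 and THAP6, more than 1000 kb away, lie near 0.

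ERRFI1, also called MIG6, encodes a cytosolic inhibitor that binds the EGFR kinase and is itself induced by EGFR signalling. It lies on chromosome 1 from 8064464 to 8086369 on the minus strand. It had 161 and 140 reads in shControl and 214 and 227 in shp63, or 2.90 and 2.60 against 4.11 and 4.53 CPM. The gap between groups was larger than the spread within either. ERRFI1 rose 1.57-fold (log2 fold change 0.65, SE 0.119, adjusted p = 4.69e-05, edgeR), and the test for a change beyond 1.5-fold did not call it (adjusted p = 0.436, glmTreat).

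Levels of different genes were compared per kilobase of the canonical GENCODE transcript (RPKM, the CPM divided by the length in kilobases). The annotation used for counting is not given, so these lengths may differ from those of the counted gene models. The order, sums and shares below depend on the lengths used. In shControl the order from the top was ERBB2 (42.7 ± 0.996 RPKM, SD, n = 2), EGFR (19.3 ± 0.899), ERBB3 (13.4 ± 0.0733) and TGFA (7.64 ± 0.173). Then came HBEGF (1.95 ± 0.00684), ERRFI1 (0.889 ± 0.0683), BTC (0.618 ± 0.0282), AREG (0.334 ± 0.0242), EPGN (0.317 ± 0.0172) and EREG (0.0219 ± 0.00328). AREG and EPGN overlapped between libraries, and no other neighbours in this order did. The place of AREG is uncertain here and in shp63, because of its near-identical copy.

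By these lengths EGFR dropped from the second place to the fourth in shp63. ERBB2 (62.5 ± 2.41 RPKM, SD, n = 2) was followed by ERBB3 (23.6 ± 0.317), TGFA (12.1 ± 0.420), EGFR (10.5 ± 0.134) and HBEGF (4.12 ± 0.0898). Below them AREG (1.56 ± 0.108), BTC (1.40 ± 0.0418) and ERRFI1 (1.40 ± 0.0945) lay close together, with BTC within the range of ERRFI1, and EPGN (0.852 ± 0.131) and EREG (0.104 ± 0.00571) came last. With the union of all annotated exons as the length, BTC stood above AREG in shp63 (1.40 against 1.17 RPKM), and ERBB3 and TGFA were level in shControl (6.41 and 6.39 RPKM).

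The 3 receptors summed to 75.2 and 75.4 RPKM in shControl and to 98.4 and 94.7 RPKM in shp63. EGFR made up 25.6% ± 1.25 of that sum in shControl and 10.9% ± 0.431 in shp63 (SD, n = 2 each). The share of ERBB2 was 56.7% and 64.7%, and that of ERBB3 was 17.7% and 24.4%. The 6 ligands summed to 10.8 and 11.0 RPKM in shControl and to 19.7 and 20.7 RPKM in shp63. TGFA made up 70.2% ± 0.583 of the ligand sum in shControl and 60.2% ± 0.0413 in shp63, and HBEGF 17.9% and 20.5%. The ligand sums and shares include AREG, whose level is uncertain because of its near-identical copy, and the SDs do not cover that uncertainty. No library of 1 group overlapped the other in either sum or in the shares of EGFR, ERBB2, ERBB3, TGFA and HBEGF.

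**Figure D4:**
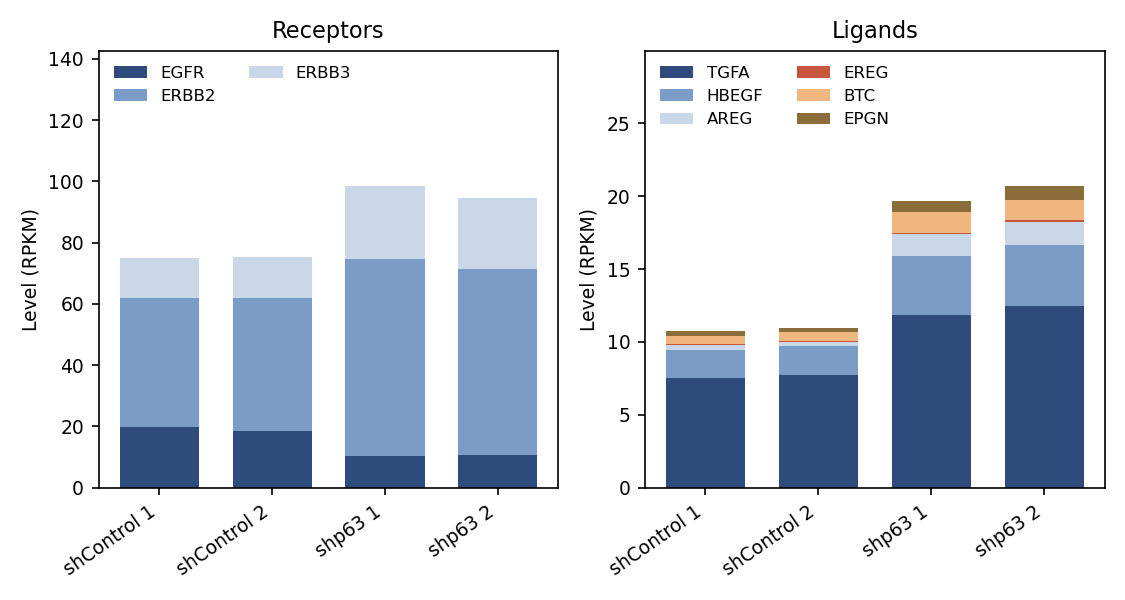
Stacked levels in RPKM for the 3 receptors (left) and the 6 ligands (right) in each library. The EGFR part shrinks from 19.9 and 18.6 to 10.4 and 10.6 while the receptor bars grow, and the ligand bars grow from 10.8 and 11.0 to 19.7 and 20.7, with TGFA the largest part in each library.

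Further genes of the pathway were taken from 8 lists with 91 genes in the table, of which 87 were tested. Of these 38 rose, 33 fell and 16 were not called, so 81.6% were called, beside 74.0% of all tested genes, with a median log2 fold change of 0.06. The counts of each list below stand beside 36.9% called higher and 37.1% called lower among all tested genes.

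The remaining receptor and ligands of the family divided, with 3 rising and 2 falling of 5 tested (median log2 fold change 1.34). EGF, the founding ligand, rose 2.53-fold, with means of 1.85 ± 0.193 and 4.68 ± 0.0996 CPM in shControl and shp63 (SD, n = 2 each). The receptor ERBB4 had 5 and 18 reads in shControl and 45 and 46 in shp63, and NRG2 had 5 and 8 reads against 20 and 20. NRG1 (neuregulin 1), the main ligand of ERBB3, went the other way, from 28 and 31 reads to 3 and 5 (log2 fold change -2.75, SE 0.432). NRG4, a ligand of ERBB4, fell 1.19-fold, from 28.6 to 24.1 CPM, and NRG3 had 2 reads in 1 shp63 library and 0 in the others. The adjusted p was 3.21e-09 for EGF, 2.61e-05 for ERBB4, 0.00105 for NRG2, 6.59e-06 for NRG1 and 0.000133 for NRG4 (edgeR). NRG1 and NRG2 passed the low-count filter only through the group where they were high, and ERBB4 needed its shp63 libraries to pass, with 1 shControl library under the minimum count, so that the count and median of this list rest in part on genes that had to differ to be tested. Under a filter of 1 CPM in 2 libraries the list had 1 gene higher and 1 lower.

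Of 10 sheddases and their partners 7 rose and 3 fell (median log2 fold change 0.60). ADAM10, which releases EGF and BTC, rose 1.88-fold, with means of 211 ± 0.0615 and 396 ± 1.11 CPM in shControl and shp63 (SD, n = 2 each). ADAM17, the main protease for TGFA, AREG, HBEGF, EREG and EPGN, fell 1.13-fold, from 69.2 ± 0.144 to 61.3 ± 0.894 CPM. ADAM8 rose 3.36-fold and ADAM12 rose 2.70-fold. TIMP3, an inhibitor of ADAM17, fell 2.35-fold, from 102 ± 0.353 to 43.4 ± 0.447 CPM. ADAM17 was the only ADAM gene of the list that fell, and the others rose. The summed level of the list, partners and TIMP3 included, was 988 to 992 CPM in shControl and 1533 to 1554 CPM in shp63.

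Downstream of the receptors the adaptor and kinase genes moved in both directions. Among 12 adaptor and RAS exchange genes 4 rose, 5 fell and 3 were not called, with a median log2 fold change of -0.01. The guanine nucleotide exchange factor genes VAV2 and VAV3 parted, VAV2 rising 1.64-fold and VAV3 falling 3.42-fold. GAB2, an adaptor of the PI3K branch, rose 1.64-fold, and NF1, a RAS inhibitor, fell 1.26-fold. Of 11 RAS-RAF-MEK-ERK genes 2 rose (MAP2K1 1.24-fold and ARAF 1.13-fold) and 5 fell, HRAS 1.99-fold among them (median -0.01). Scaled to library totals alone, 1 of these 11 was called higher. Of 9 tested PI3K-AKT genes 4 rose and 3 fell (median 0.05). INPP4B, a phosphatase that opposes PI3K, rose 1.60-fold, and the regulatory subunit genes PIK3R1 and PIK3R2 fell 1.55-fold and 1.22-fold.

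Genes listed for receptor endocytosis and turnover split evenly, 5 of 15 rising and 5 falling (median log2 fold change 0.03). PTPRJ, a receptor phosphatase, rose 2.34-fold and STAM2, a sorting adaptor, rose 1.37-fold. LRIG3 fell 1.77-fold, the phosphatase gene PTPN1 fell 1.18-fold, and LRIG1, a transmembrane antagonist of EGFR, stood at 5.74 and 6.39 CPM (adjusted p = 0.130, edgeR). DESeq2 called 3 of this list lower.

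Among 11 tested ERK and receptor feedback genes 6 rose, 4 fell and 1 was not called, with a median log2 fold change of 0.71. SPRY2, a feedback inhibitor upstream of RAS, rose 2.58-fold, with means of 7.41 ± 0.356 and 19.1 ± 0.264 CPM in shControl and shp63 (SD, n = 2 each), beside the 5.84-fold rise of the ERK phosphatase gene DUSP4. DUSP7 fell 1.68-fold and SOCS4 fell 1.22-fold. The number called lower was 2 with DESeq2 and 2 without shControl replicate 1. Of 14 tested ERK-responsive transcripts 7 rose and 6 fell (median 0.48). PLAUR, the urokinase receptor gene, rose 4.55-fold, from 13.7 ± 0.313 to 62.4 ± 1.57 CPM, and IER3 rose 4.90-fold. HMGA1, a chromatin protein gene, fell 2.18-fold, from 251 ± 0.138 to 115 ± 0.615 CPM, and MYC fell 4.17-fold.

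**Figure D5:**
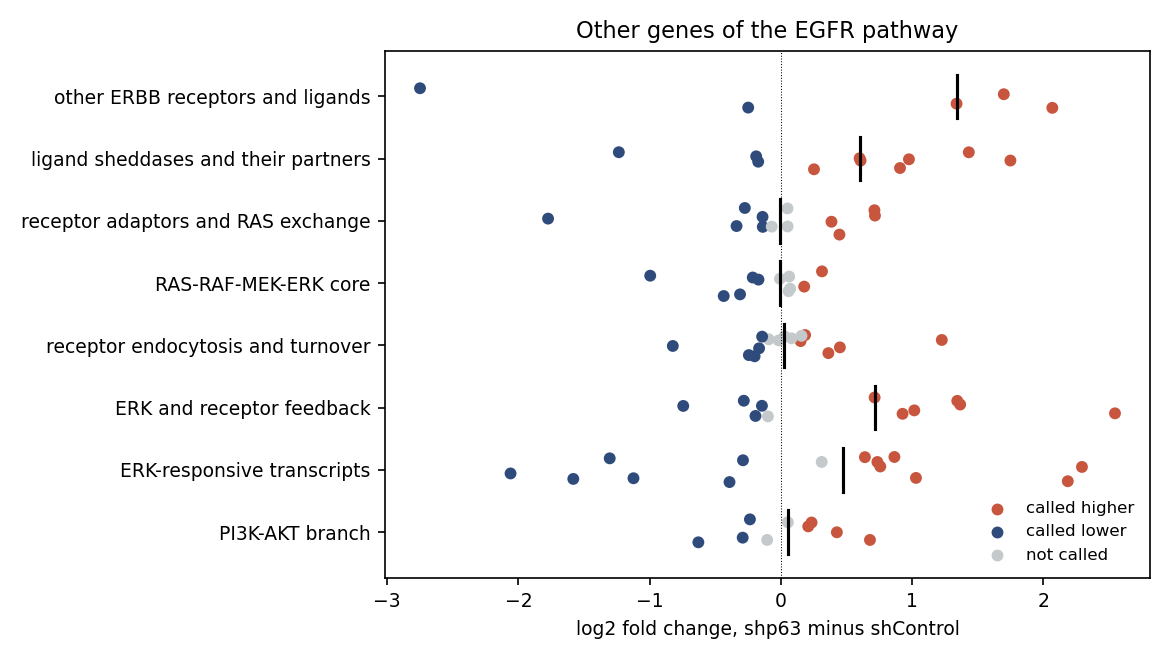
Log2 fold change of each tested gene in the 8 pathway lists, coloured by call (edgeR, adjusted p under 0.05), with a black bar at each list's median. The medians of the first 2 lists (1.34 and 0.60) and of the 2 ERK lists (0.71 and 0.48) lie to the right, and the other 4 lie between -0.01 and 0.05, with the first median resting on 5 genes of which 3 passed the low-count filter through the group where they were high.

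Genes of at least 5 CPM with the pattern over the 4 libraries closest to a member, by Euclidean distance of centred log2 CPM, were GNAI1, SPIN4 and CAD for EGFR (0.0348 to 0.0386), PSAP, AGRN and LGALS9C for ERBB3 (0.00842 to 0.0150) and PDE5A, POLD4 and MGLL for HBEGF (0.0166 to 0.0225). For ERBB2 they were NBEAL2, SERINC2 and ZNF83, for TGFA they were AAMDC, GSKIP and WWC1, and for ERRFI1 they were RASSF4, IGF2R and IFI27L1. For AREG they were C4orf19, PCDH7 and C15orf48, and for EREG they were SNTB1, NPNT and CHST4. BTC was nearest to PPIC, ADCY6 and FBLN1, and EPGN to PCDHB14, TNRC6C-AS1 and S100A9. With 4 libraries in 2 groups this likeness is mainly a like fold change.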

How the data were processed

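Poly(A) RNA was measured in 4 libraries. Per the series' design text, TopHat2 aligned the reads to GRCh37 (hg19) and HTSeq counted them by gene; the submitters' processing notes give versions 2.0.13 and 0.6.1. The authors deposited raw counts, 1 whole number for each gene symbol and library. The annotation, and whether counting used strand, are not given in the sources used here.

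The test was that of edgeR 4.0.16 (R 4.3.3): filterByExpr (minimum count 10, minimum total 15; 14901 genes kept, 10468 left out), TMM factors, and a robust quasi-likelihood model with group as the only term, with Benjamini-Hochberg adjustment over all tested genes and calls under 0.05. The fit had 2 residual degrees of freedom and a common biological coefficient of variation of 0.0308. CPM values use the TMM factors. SDs reflect only how far the 2 cultures within a group differ. The p-values likewise reflect only spread between cultures, but take it largely from other genes, with a median of 18.8 prior degrees of freedom. Standard errors come from the fold change and its F statistic. The test was also run on counts simulated from its own fit to these data, which does not check whether that fit suits them. The replicates of each group differed by more than sampling noise (chi-square per degree of freedom 3.30 and 3.60), so all 4 libraries were kept.

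Gene positions and lengths are from GENCODE 44 lifted to GRCh37. Canonical transcripts were aligned to that genome with minimap2 2.31.

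The family genes, pathway lists and marker lists were chosen with earlier results of these data known. Named were the 10 genes, TP63, in each pathway list and direction up to 2 genes with the smallest adjusted p, 9 further genes of these lists (ERBB4, EGF, NRG1 to NRG4, ADAM10, ADAM17 and LRIG1) and the 3 closest patterns per called member. Some genes under this rule are not reported here. MIEN1, PGAP3, the chromosome 4 neighbours and the marker genes named were added after their values were seen. Alternatives were 2 other scalings (RLE and library totals), 2 other filters, DESeq2 1.42.0, limma-voom (limma 3.58.1), a replicate block, each library left out, and a test against 1.5-fold (glmTreat).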

Additional observations from a re-analysis of the deposited data

How the results depend on the processing

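The direction of all 10 family genes was the same under all 13 alternatives that could give a value, and 127 of 129 calls were unchanged. The exceptions were ERBB2 (0.55) and ERRFI1 (0.65), not called in the test against 1.5-fold, whose stricter question applies to every count that follows for it. That test called 1894 genes higher and 1491 lower over all genes. By list it called 3 higher and 1 lower among the other ERBB genes, 4 and 1 among sheddases, and 2 and 1 among adaptors. The numbers were 0 and 1 in the RAS-RAF-MEK-ERK core, 1 and 1 in receptor turnover, and 3 and 1 among feedback genes. They were 5 and 4 among ERK-responsive transcripts, and 1 and 0 in the PI3K-AKT branch. The filter of 1 CPM in 2 libraries left out EREG and gave 1 higher and 1 lower among the other ERBB genes, since it tests fewer of them. Library totals gave 1 higher in the RAS-RAF-MEK-ERK core, and DESeq2 gave 3 lower in receptor turnover and 2 lower among feedback genes; the cause was not tested. Leaving out 1 library, which leaves a lone sample assumed to vary like the other group, gave 5168 to 5272 genes higher and 5171 to 5314 lower in all, 9 and 1 family genes each time, and 2 to 4 feedback genes lower.

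With the replicate number as a block, 5408 genes were higher and 5450 lower, and 9 and 1 of the family. Deviations of same-numbered libraries correlated at -0.112, so the numbers were not taken as pairs. The crossed pairing, added after seeing the data, gave 5659 and 5728. With union exon length, also added then, the EGFR share of the receptor sum was 32.2% in shControl and 14.4% in shp63, and the TGFA share of the ligand sum was 60.6% in shp63. The alternative that sums AREG with its copy was not run. Of the family genes, depth limits EREG, AREG and EPGN most, with under 50 reads in each shControl library; several list genes and neighbours had as few or fewer.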
